A study of Mus musculus with 18 samples.

Results

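Medullary thymic epithelial cells of the hi gate (mTEChi) were compared with cortical thymic epithelial cells (cTEC), both sorted from Aire knockout (KO) mice, using the libraries whose titles name these populations, 3 of each. These are 6 of the 18 RNA-seq libraries of the series. Of the 23063 genes in the tables, 16737 reached 0.1 RPKM in 3 or more of the 6 libraries and entered the test. RPKM is the read density on a gene, scaled to the length of its model and to the size of the library. The study sorted cTEC, mTEClo and mTEChi from enzyme-digested thymi of wild-type (WT) and KO mice, 3 libraries per group. All mice were 6 to 8 weeks old. The strain label on every sample, WT samples included, is B6.129S2-Airetm1.1Doi/J, a line with a targeted Aire allele. The labels describe the allele no further, do not name the surface protein that the lo and hi gates measure, and do not say whether the libraries of a group came from separate mice. The p-values therefore measure the spread between libraries of a group, which may be technical. That spread was pooled over all 18 libraries, not taken from the 6 compared.

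In the thymic cortex, cTEC give immature thymocytes Notch ligands, interleukin-7 and chemokines, and present self-peptides, cut by proteases of their own, on which T cells are positively selected. In the medulla, mature epithelial cells carry much MHC class II and co-stimulatory protein and transcribe genes otherwise restricted to single organs, so that T cells that recognise these products are deleted or become regulatory. The nuclear protein Aire switches on many of these tissue-restricted genes, and NF-kB signalling downstream of RANK and CD40 drives the cells to mature. The comparison asks which genes set mature medullary apart from cortical epithelium in Aire KO mice.

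A cortical and a medullary marker gene separated the 6 libraries as labelled, while the cortical genes Ccl25 and Dll4 went the other way (below). Cxcl12, a chemokine of the cortex that attracts thymocyte precursors, was at 0.882, 1.14 and 0.920 RPKM in the KO mTEChi libraries and at 62.4, 113 and 98.2 RPKM in the KO cTEC libraries. Fezf2, a transcription factor of mature mTEC, was at 216, 218 and 209.5 RPKM in KO mTEChi and at 31.9, 19.2 and 13.4 RPKM in KO cTEC. Neither Cxcl12 nor Fezf2 overlapped between the groups. The pan-epithelial keratin Krt18 did not separate them, at 742, 802 and 651 RPKM in KO mTEChi and 727, 745 and 676 RPKM in KO cTEC (log2 difference 0.03 ± 0.12, adjusted p = 0.84). Between 6.25 and 11.6 Gb of sequence were aligned to genes per library. Across the 16737 genes, log2 levels correlated at r = 0.992 to 0.994 between KO mTEChi libraries, at 0.96 to 0.978 between KO cTEC libraries and at 0.772 to 0.845 between the groups, as a description. KO cTEC replicate 1 correlated at 0.944 to 0.946 with the KO mTEClo libraries and at 0.915 to 0.934 with the WT cTEC libraries. For KO cTEC replicates 2 and 3 the values were 0.932 to 0.9445 with KO mTEClo and 0.956 to 0.972 with WT cTEC.

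Aire (chr10:78030022-78043610, mm10) could not check the genotype label. The tables give 1 value for the whole gene, and the labels do not say which part of it was targeted. Its RNA was at 1126, 1001 and 1091 RPKM in KO mTEChi, at 95.6, 35.9 and 27.0 RPKM in KO cTEC and at 677 ± 17.9 RPKM (SD, n = 3) in WT mTEChi. All 3 KO mTEChi libraries lay above all 3 KO cTEC libraries, by 20.3 times in the mean. On the scale of log2(RPKM + 0.1) used for every test here, the difference was 4.56 ± 0.43 (estimate ± SE from limma, adjusted p = 7.1e-08).

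The KO cTEC libraries held more RNA of medullary genes than the WT cTEC libraries did. In WT cTEC, Aire was at 2.09, 3.95 and 7.39 RPKM, and KO cTEC exceeded WT cTEC by 3.49 ± 0.43 on the log2 scale (adjusted p = 3.2e-05). Csn2, a casein that mTEChi transcribe in quantity, was at 147, 60.1 and 48.8 RPKM in KO cTEC and at 3.23, 7.73 and 9.44 RPKM in WT cTEC. Of 14 marker genes of mature mTEC, 11 were higher in KO cTEC than in WT cTEC, against 15.9% of all tested genes. The median of the 14 markers, as a percentage of their KO mTEChi mean, was 24.4, 13.9 and 8.45 in KO cTEC replicates 1, 2 and 3 and 3.65, 5.75 and 6.22 in the WT cTEC replicates. KO cTEC replicate 1 was the highest of the 3 KO cTEC libraries for 14 of the 14 markers, against 6272 of the 16737 tested genes. The part of this RNA in the results below was not tested. Some of the results that rest on low values in KO cTEC, not all, are therefore also given without KO cTEC replicate 1 or with WT cTEC in place of KO cTEC. The latter is an alternative chosen after seeing the data.

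**Figure D1:**
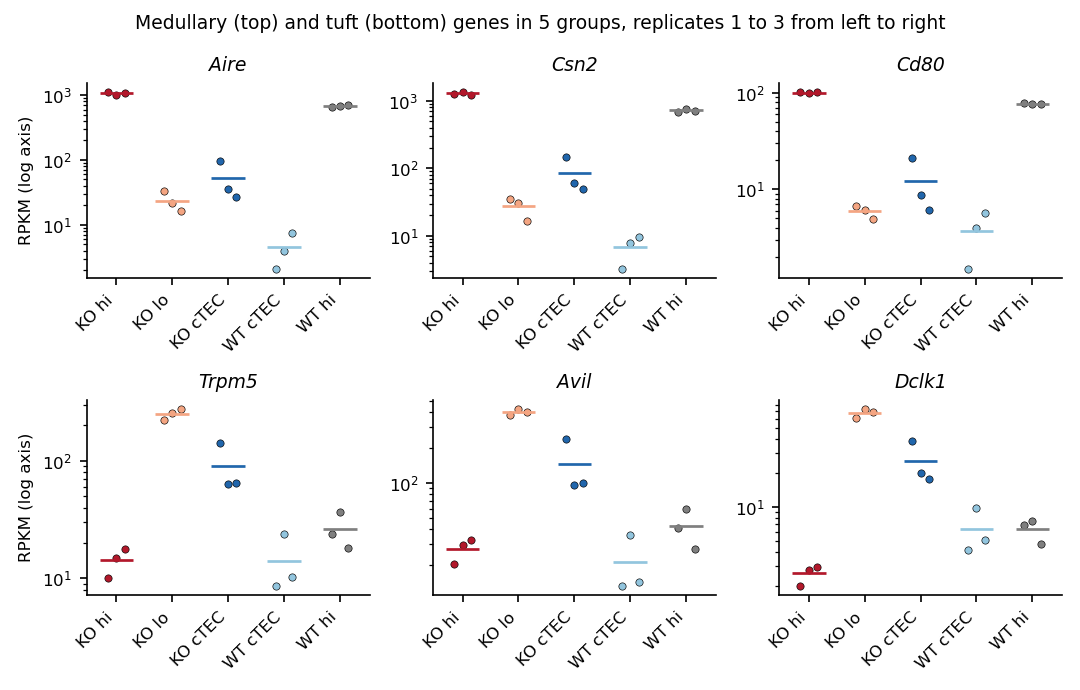
Levels in RPKM (log axes) of 3 medullary genes (Aire, Csn2, Cd80) and 3 tuft cell genes (Trpm5, Avil, Dclk1) in KO mTEChi, KO mTEClo, KO cTEC, WT cTEC and WT mTEChi; each point is 1 library, each line the mean of 3. For all 6 genes KO cTEC replicate 1 is the highest KO cTEC library, and for Aire the 3 KO cTEC libraries (27.0 to 95.6 RPKM) all lie above the 3 WT cTEC libraries (2.09 to 7.39 RPKM).

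The 2 populations differed across most of the transcriptome. A gene was called when its Benjamini-Hochberg adjusted p over the 16737 genes was under 0.05 in limma, and 12805 genes (76.5%) were. Of these, 4870 (29.1% of all tested) were higher and 7935 (47.4%) lower in KO mTEChi. At least 2-fold differences were called for 3144 genes (18.8%) on the higher side and 3776 (22.6%) on the lower side. For 12640 genes (75.5%) no KO mTEChi library overlapped any KO cTEC library. The median log2 difference over all tested genes was -0.25. Quantile normalization brought that median to -0.01 and the counts to 5973 higher and 6169 lower, so that the share of calls on the higher side went from 38% to 49.2%. List medians below are to be read against -0.25, and list counts against 29.1% higher and 47.4% lower. Without KO cTEC replicate 1, 5018 of the 16737 genes were higher and 7998 lower in KO mTEChi. With WT cTEC in place of KO cTEC, 5422 were higher and 7833 lower, with a median of -0.22. KO mTEChi transcribed 16467 ± 42.3 genes (SD, n = 3) at 0.1 RPKM or more and KO cTEC 16061 ± 219, a difference of 406 genes with p = 0.1 in an exact 2-sided permutation test, the smallest p that 3 against 3 libraries allow. Counted at 1 RPKM or more, the number in KO mTEChi minus that in KO cTEC was -201.7 (exact permutation p = 0.2).

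**Figure D2:**
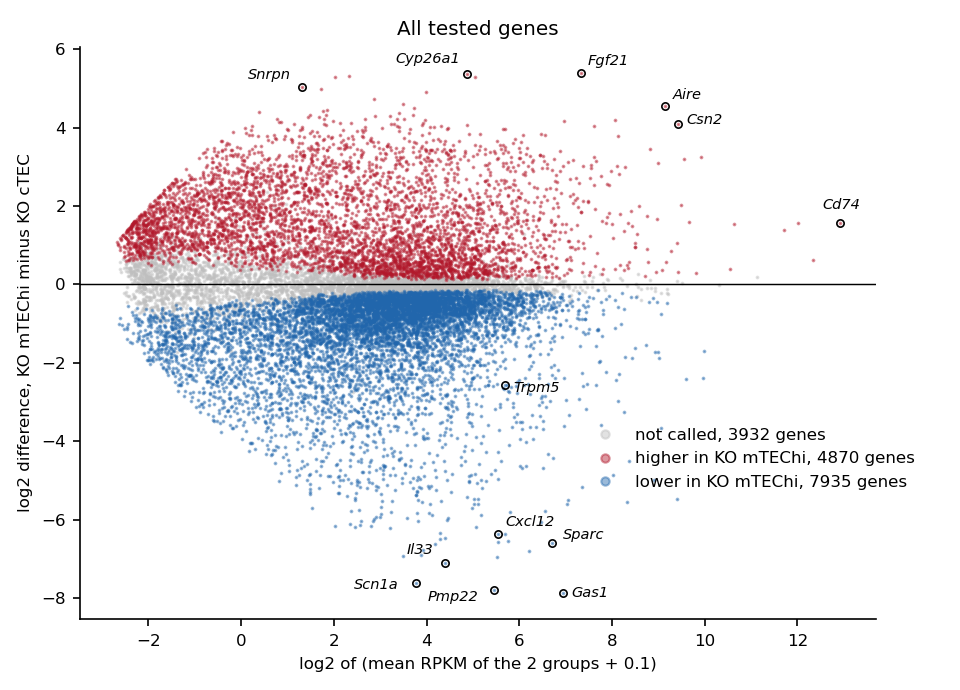
Log2 difference between KO mTEChi and KO cTEC (vertical axis, from log2(RPKM + 0.1)) against the mean level of the 2 groups (horizontal axis, log2 of the mean RPKM + 0.1) for the 16737 tested genes, coloured by the call. The falls reach further than the rises, with Gas1 at -7.87 and Fgf21 at 5.39, and Cd74 is the most abundant gene marked.

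The 12 largest falls, among called genes without overlap between the groups, predicted gene models left out, began with Gas1, Pmp22 and Scn1a. Gas1 (chr13:60174405-60177535), a membrane protein that binds hedgehog ligands, was at 0.686, 1.18 and 0.899 RPKM in KO mTEChi and at 148, 277 and 315 RPKM in KO cTEC, a log2 difference of -7.87 ± 0.25 (adjusted p = 4.0e-13). Pmp22, a membrane protein known from peripheral myelin, was at 0.147, 0.344 and 0.408 RPKM in KO mTEChi and at 62.1, 103 and 96.8 RPKM in KO cTEC (-7.80 ± 0.27). Scn1a, a voltage-gated sodium channel known from neurons, was at 0.0235, 0.0351 and 0.0470 RPKM in KO mTEChi and at 19.0, 29.7 and 32.8 RPKM in KO cTEC (-7.62 ± 0.28). For each of these 3 genes, the lowest KO cTEC library stood more than 100 times above the highest KO mTEChi library. The alarmin cytokine Il33 fell by 7.10 on the log2 scale, from 26.5, 38.3 and 59.7 RPKM in KO cTEC to 0.152, 0.234 and 0.184 RPKM in KO mTEChi. Fmod (fibromodulin, -6.95) and Sparc (-6.60) are matrix proteins, Thbd (thrombomodulin, -6.91) and F3 (tissue factor, -6.80) belong to the coagulation system, and Aldh1a1 (-6.78) makes retinoic acid. Igfbp3 (-6.57) binds insulin-like growth factors, Gpx8 (-6.62) is a peroxidase of the endoplasmic reticulum, and Prss23 (-6.94) is a secreted serine protease. The choice required that the groups did not overlap, so none of the 12 did.

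The 12 largest rises were chosen in the same way, among genes with a mean of 1 RPKM or more in the higher group, and began with Fgf21 and Cyp26a1. Fgf21 (chr7:45613890-45615490), a hormone known from liver, was at 317, 344 and 279 RPKM in KO mTEChi and at 20.4, 5.90 and 3.24 RPKM in KO cTEC, a log2 difference of 5.39 ± 0.45 (adjusted p = 1.9e-08). Cyp26a1, which breaks down retinoic acid, was at 59.0, 59.1 and 50.6 RPKM in KO mTEChi and at 3.51, 0.397 and 1.29 RPKM in KO cTEC (5.37 ± 0.53). The retinoid pair thus went in opposite directions, with Aldh1a1 among the largest falls and Cyp26a1 among the largest rises. Snrpn, an imprinted gene, was at 3.79, 5.0 and 5.29 RPKM in KO mTEChi and at 0, 0.0171 and 0.164 RPKM in KO cTEC (5.03 ± 0.32). Its value cannot be separated here from that of Snurf, which shares its transcript. Among the other rises, Crhbp (5.29) binds corticotropin-releasing hormone, Calca (4.92) encodes calcitonin, Wnt10b (4.6) is a Wnt ligand, and Madcam1 (4.98) is an adhesion molecule for lymphocytes. Siglec15 (5.33) is a sialic acid receptor and Mia (4.49) a secreted protein of cartilage and melanoma. Apol11a (5.31) and Olfr1136 (4.74) belong to families with close copies, so their reads may be shared. KO cTEC replicate 1 was the highest of the KO cTEC libraries for Fgf21, Cyp26a1, Aire, Crhbp, Calca, Wnt10b, Mia, Siglec15, Apol11a and Olfr1136. Set against WT cTEC, the rise of Fgf21 was 7.55 and that of Cyp26a1 8.89 on the log2 scale.

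Genes with which the cortex supports thymocytes were lower in KO mTEChi. Of 14 genes of cortical epithelium, 10 were lower, 3 higher and 1 was not called, with a median log2 difference of -3.05. Ccrl1 (also Ackr4), a scavenging receptor for chemokines, was at 2.09, 2.50 and 2.77 RPKM in KO mTEChi and 117, 202 and 202 RPKM in KO cTEC (-6.05 ± 0.26), and Cxcl12 differed by -6.37 ± 0.17. The cysteine protease Ctsl was at 21.2, 35.1 and 31.3 RPKM in KO mTEChi and 665, 1221 and 909 RPKM in KO cTEC (-4.98 ± 0.21). Prss16, the thymus-specific serine protease, was at 17.2, 21.5 and 16.0 RPKM against 170.4, 337 and 188 RPKM (-3.60 ± 0.24), and the subunit of the thymoproteasome Psmb11 at 0.912, 0.702 and 0.569 RPKM against 10.1, 20.5 and 11 RPKM (-4.03 ± 0.27). Mean levels in KO cTEC were 12.7 (Prss16) to 70.8 (Ccrl1) times those in KO mTEChi for Ccrl1, Ctsl, Prss16 and Psmb11, and 93.1 times for Cxcl12. The survival factor Il7 was 6.14 times higher in KO cTEC (log2 difference -2.57), and Enpep, an aminopeptidase of the cell surface, 26.8 times (log2 difference -4.57).

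The 3 exceptions among the cortical genes were a chemokine, a Notch ligand and a thymic protein. Ccl25, which attracts thymocytes through Ccr9, was at 509, 514 and 416 RPKM in KO mTEChi and at 144, 238 and 119 RPKM in KO cTEC (1.58 ± 0.26). Tbata, a thymus and testis protein, was at 392, 387 and 347 RPKM in KO mTEChi and at 118, 147 and 70.2 RPKM in KO cTEC (1.81 ± 0.21). In both genes the lowest KO mTEChi library stood above the highest KO cTEC library. Dll4, the Notch ligand on which T cell commitment depends, was at 6.68, 5.64 and 7.15 RPKM in KO mTEChi and at 3.85, 5.90 and 2.70 RPKM in KO cTEC (0.69 ± 0.24, adjusted p = 0.015), with 1 KO cTEC library inside the KO mTEChi range. Its call was lost without KO cTEC replicate 3 (0.429, adjusted p = 0.101) or KO mTEChi replicate 3 (0.622, adjusted p = 0.053). Cd83, a stabiliser of surface MHC class II, was not called, at 24.6, 27.7 and 21.3 RPKM in KO mTEChi and 41.7, 41.4 and 15.4 RPKM in KO cTEC (-0.29 ± 0.30, adjusted p = 0.39), but was called lower without KO cTEC replicate 3 (-0.767, adjusted p = 0.0036).

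**Figure D3:**
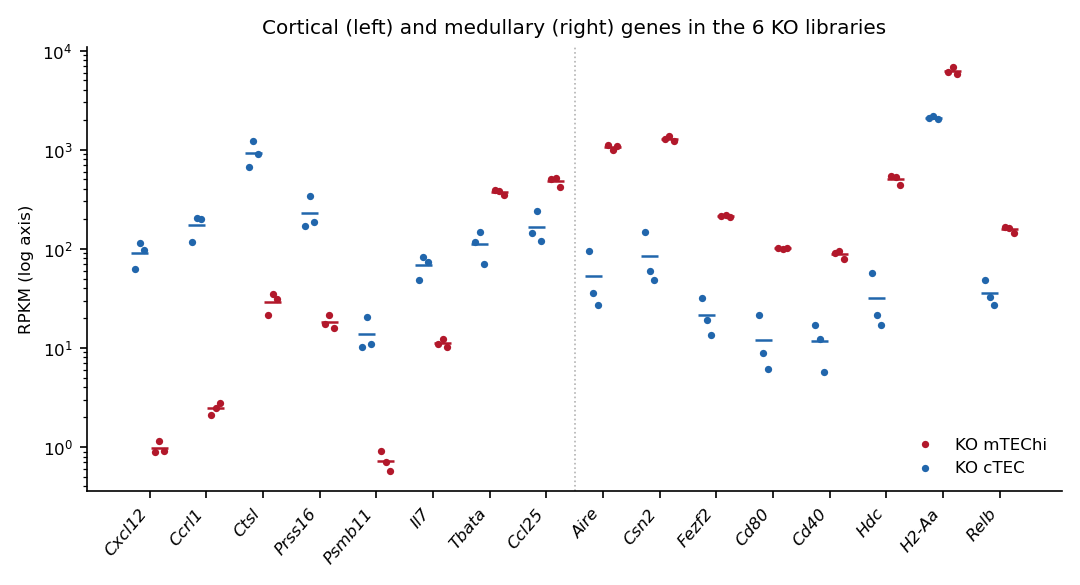
RPKM on a log axis for 8 cortical genes (left of the dotted line) and 8 medullary genes (right) in the 3 KO mTEChi and the 3 KO cTEC libraries; each point is 1 library and each line a mean. Cxcl12 to Il7 are lower in KO mTEChi, Tbata and Ccl25 are higher, and for the medullary genes other than H2-Aa the KO cTEC points spread more than the KO mTEChi points, as for Aire (27.0 to 95.6 against 1001 to 1126 RPKM).

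All 14 genes that mark mature mTEC were higher in KO mTEChi, with a median log2 difference of 2.84, and all 14 stayed called without KO cTEC replicate 1 (median 3.21) and against WT cTEC (median 4.32). Hdc, which makes histamine, was at 543, 531 and 442 RPKM in KO mTEChi and at 57.5, 21.4 and 17.1 RPKM in KO cTEC (4.18 ± 0.37). Ubd, a ubiquitin-like modifier, was at 1368, 1483 and 1156 RPKM in KO mTEChi and at 265, 143 and 79.3 RPKM in KO cTEC (3.20 ± 0.35). Cd80, a co-stimulatory ligand, was at 102, 98.9 and 103 RPKM in KO mTEChi and at 21.3, 8.81 and 6.15 RPKM in KO cTEC (3.25 ± 0.40). For each of these genes KO cTEC replicate 1 was the highest library of its group, and no KO cTEC library reached a KO mTEChi library. The protease Ctss, which trims the invariant chain in the medulla, differed by 2.31 ± 0.29, and the claudins Cldn3 and Cldn4 by 1.64 and 1.97.

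The MHC class II pathway was higher in KO mTEChi as a group. Of its 11 genes, 10 were higher and 1 was not called, with a median of 1.55, and 8 of the 11 were higher after quantile normalization. Cd74, the invariant chain, was the most abundant gene of KO mTEChi, at 11353, 11868 and 11258 RPKM, and stood at 3879.9, 3899.9 and 3868 RPKM in KO cTEC (1.57 ± 0.24). H2-Aa, a chain of the I-A molecule, was at 6076, 6789 and 5752 RPKM in KO mTEChi and at 2079, 2162 and 2049 RPKM in KO cTEC (1.56 ± 0.17). Levels in KO cTEC were high as well, and the mean in KO mTEChi was 2.96 times that of KO cTEC for Cd74 and 2.96 times for H2-Aa. After quantile normalization, which forces the top ranks of all libraries to the same values, Cd74 differed by 0.353 and was not called, and a fit of the 6 libraries alone did not call it either (1.57, adjusted p = 0.0565). Ciita, the transactivator of these genes, went from 31.9, 30.8 and 28.9 RPKM in KO cTEC to 97.9, 89.8 and 93.1 RPKM in KO mTEChi (1.62 ± 0.11). Larger differences belonged to H2-O, the inhibitor of peptide exchange. H2-Oa was at 366, 397 and 362 RPKM in KO mTEChi and at 71.1, 51.0 and 45.4 RPKM in KO cTEC (2.77 ± 0.12), and H2-Ob rose by 3.04 on the log2 scale. Of H2-M, the catalyst of that exchange, H2-DMb1 (1.1) and H2-DMb2 (1.55) were higher, and H2-DMa was not called, at 91.3, 98.5 and 91.5 RPKM against 83.4, 117 and 135 RPKM (-0.23 ± 0.14, adjusted p = 0.14). Without KO cTEC replicate 1, H2-DMa was called lower, at -0.423. The DMb genes are close copies that may share reads.

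Promoters of class II genes carry a Y box, bound by NF-Y, beside which the factors that recruit Ciita sit. The letters CTGATTGG were searched on both strands of RefSeq promoters (GRCm38.p6, 250 bases before to 50 after each start), and 4.7% of 27025 genes held them. Of the 11 class II genes 8 had such a promoter in the table, and 3 held the letters. All of them were called higher, but so were 10 of the 11 genes of the list. H2-Ob (3.04), H2-DMb2 (1.55), Ifi30 (1.54) and H2-DMb1 (1.1) were higher without the letters, and H2-DMa, also without them, was not called. The 100 bases shown for each end at or before the start of the gene, with the Y box in capitals, from chr17:34287824-34287923, - strand, chr17:34305759-34305858, + strand and chr17:34092279-34092378, + strand, because these are the members whose promoters carry the box.
H2-Aa: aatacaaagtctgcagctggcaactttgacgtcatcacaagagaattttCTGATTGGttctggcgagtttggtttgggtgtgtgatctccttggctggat
H2-Eb1: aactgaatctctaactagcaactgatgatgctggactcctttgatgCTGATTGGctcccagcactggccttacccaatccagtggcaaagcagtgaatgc
H2-Oa: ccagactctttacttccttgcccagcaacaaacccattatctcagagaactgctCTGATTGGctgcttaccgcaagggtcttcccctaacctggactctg
In H2-Oa, H2-Eb1 and H2-Aa the box begins 46, 62 and 51 bases before the start. In the same order, the log2 differences of these genes were 2.77, 1.55 and 1.56. A match is a description and does not show that a factor binds there.

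Lysosomal proteases, which prepare antigen and the invariant chain for class II, went both ways. Of 15 lysosomal genes, 9 were lower and 4 higher (median -0.96), where 47.4% and 29.1% of all tested genes were. Ctsh (3.01), Ctsz (2.14), Ctse (3.55) and Ctss were higher in KO mTEChi, and Ctsl, Ctsd (-2.07), Ctsb (-1.09) and the inhibitor cystatin C, Cst3 (-1.86), were lower. Ctsd was at 28.3, 32.2 and 26.8 RPKM in KO mTEChi and at 106, 126 and 137 RPKM in KO cTEC, with no overlap. Ctsh was at 303, 311 and 264 RPKM in KO mTEChi and at 62.9, 28.3 and 26.4 RPKM in KO cTEC, with no overlap either. In the autophagy list, 6 of 14 genes were lower and 4 higher, near the shares of all tested genes (47.4% and 29.1%). After quantile normalization 6 went each way. Of the genes for the membrane conjugates of autophagosomes, Map1lc3b (-1.57) and Gabarapl1 (-2.02) were lower, as was the kinase gene Ulk1 (-1.80).

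The class I pathway differed less. Of 13 genes, 8 were higher and 3 lower with a median of 0.31, while after quantile normalization 5 were higher and 4 lower. B2m, the light chain of class I, differed by 0.62 ± 0.24 and by -0.731 after quantile normalization, and its call was lost without KO cTEC replicate 2 (0.643, adjusted p = 0.052) or replicate 3 (0.569, adjusted p = 0.064). Tapbp (tapasin) differed by 0.94 ± 0.07, the transporter Tap1 by -0.32 ± 0.07 (not called when centred on housekeeping genes, at -0.169) and the trimming peptidase Erap1 by -1.21 ± 0.10. Among 10 proteasome genes 5 were higher and 3 lower, or 7 and 2 after quantile normalization. The immunoproteasome subunits went different ways, with Psmb10 at 1.11, Psmb8 at 0.44 and Psmb9 at -0.53, and the activator subunits Psme1 and Psme2 rose by 0.91 and 0.99.

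Genes of NF-kB signalling and its receptors were mostly higher in KO mTEChi, with exceptions among the receptors and on the canonical arm. Of 18 genes, 12 were higher and 5 lower (median 1.51). The RANK receptor Tnfrsf11a was at 63.4, 62.9 and 69.3 RPKM in KO mTEChi and 18.1, 9.0 and 6.79 RPKM in KO cTEC (2.64 ± 0.28), and Cd40 at 91.3, 95.9 and 78.6 RPKM and 17.1, 12.4 and 5.75 RPKM (3.03 ± 0.30). The subunits of the non-canonical arm were higher, Relb at 165, 164 and 144 RPKM against 48.5, 32.6 and 27.3 RPKM (2.16 ± 0.20) and Nfkb2 at 175, 166 and 162 RPKM against 63.4, 39.6 and 32.8 RPKM (1.94 ± 0.16). The adaptor Traf6 (1.68), the kinase Map3k14 (1.33), the inhibitor Nfkbia (2.04) and the ubiquitin ligase Birc3 (1.82) were higher too. Lower were the lymphotoxin receptor Ltbr, at 11.2, 11.1 and 11.2 RPKM against 29.6, 38.4 and 38.5 RPKM (-1.65 ± 0.10), the TNF receptor Tnfrsf1a (-1.97), the canonical subunit Nfkb1 (-0.84) and the brake Tnfaip3 (-2.14). KO cTEC replicate 1 was the highest KO cTEC library for 14 of the 18 genes. Without it 13 were higher and 4 lower, and against WT cTEC 13 were higher and 5 lower.

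A loose form of the NF-kB site, GGGA followed by any 4 bases and CC, was searched on both strands in the same promoters. It allows any base at 4 places, so a match need not be an NF-kB site. A match stood in 22.9% of the 27025 genes and in 8 of the 15 family members in the table: Nfkb2, Rela, Rel, Traf2, Traf6, Birc3, Tnfaip3 and Nfkbia. Shown with the matches in capitals are 100 bases, each run ending at or before the start, of 3 members that rose, from chr19:46304637-46304736, + strand, chr9:7873173-7873272, - strand and chr12:55492798-55492897, - strand, the first of which holds one match that reads the same on both strands and a further one on the opposite strand.
Nfkb2: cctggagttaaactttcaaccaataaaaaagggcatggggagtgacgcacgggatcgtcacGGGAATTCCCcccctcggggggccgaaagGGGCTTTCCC
Birc3: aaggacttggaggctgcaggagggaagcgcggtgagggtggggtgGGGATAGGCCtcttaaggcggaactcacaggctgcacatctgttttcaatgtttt
Nfkbia: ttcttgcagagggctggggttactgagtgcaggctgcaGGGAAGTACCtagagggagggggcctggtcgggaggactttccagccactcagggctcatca
Members with and without a match went both ways: Tnfaip3 held one and was lower, while Tnfrsf11a held none in this window and was higher.

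Ligands with which T cells are co-stimulated or checked rose in KO mTEChi, 11 of 15 (3 lower, median 1.94). Icosl was at 261, 248 and 261 RPKM in KO mTEChi and at 46.4, 24.5 and 20.4 RPKM in KO cTEC (3.16 ± 0.25), and Cd70, the ligand of CD27, at 42.5, 48.0 and 39.3 RPKM and 7.23, 2.99 and 2.06 RPKM (3.56 ± 0.42). Ctla4, an inhibitory receptor that binds Cd80 and Cd86, was at 82.5, 85.2 and 82.3 RPKM in KO mTEChi and at 21.3, 12.4 and 8.51 RPKM in KO cTEC (2.66 ± 0.39). In WT it was at 5.78 ± 0.577 RPKM in mTEChi, with a log2 difference to WT cTEC of 2.18. Its RNA was thus more abundant in both KO populations than in their WT counterparts, by 3.35 ± 0.39 between KO and WT cTEC (adjusted p = 2.2e-05), and the KO difference minus the WT difference, tested in the same fit, was not called (0.48, adjusted p = 0.51). The checkpoint ligand Cd274 (PD-L1) was lower, at 55.7, 54.9 and 56.1 RPKM against 87.7, 98.1 and 117 RPKM (-0.85 ± 0.12), while its relative Pdcd1lg2 (PD-L2) was higher (1.05).

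Among transcription factors of the thymic anlage, single genes stood far apart, but the counts were near those of all genes. Of 12 regulators, 7 were lower (6 after quantile normalization) and 3 higher, where 47.4% and 29.1% of all tested genes were. Pax1 was at 11.1, 10.6 and 10.6 RPKM in KO mTEChi and at 106, 159 and 149 RPKM in KO cTEC (-3.64 ± 0.11). Hoxa3 was at 0.0815, 0.151 and 0.131 RPKM in KO mTEChi and at 6.68, 9.81 and 11.8 RPKM in KO cTEC (-5.40 ± 0.22). Trp63, the p63 gene of epithelial progenitors, was at 19.5, 18.7 and 19.5 RPKM in KO mTEChi and at 80.8, 132 and 144 RPKM in KO cTEC (-2.57 ± 0.15). No library overlapped for these 3 genes. Eya1 (-2.42) and Pax9 (-1.20) were lower as well. Foxn1, the master regulator of thymic epithelium, went the other way, at 61.0, 54.4 and 58.7 RPKM in KO mTEChi and 31.1, 33.6 and 28.1 RPKM in KO cTEC (0.91 ± 0.09).

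Basal keratins and other genes of immature mTEC were lower, 8 of the 9 members tested of 12 listed, with a median of -2.57. Krt5 was at 67.9, 86.1 and 80.5 RPKM in KO mTEChi and at 874, 1041 and 1054 RPKM in KO cTEC (-3.66 ± 0.14). Its partner Krt14 was at 50.9, 58.6 and 46.0 RPKM and 257, 316 and 335 RPKM (-2.54 ± 0.14), and podoplanin, Pdpn, fell by 4.83 on the log2 scale. Krt17 was the member not called (0.10 ± 0.14, adjusted p = 0.52). Krt19 (-4.01) and E-cadherin, Cdh1 (-1.01), were lower, Krt8 was higher (0.56), and Epcam was not called (-0.18 ± 0.08, adjusted p = 0.059). Without KO cTEC replicate 2 or KO mTEChi replicate 2, Epcam was called lower, at -0.244 and -0.241. In KO mTEClo, set beside the same KO cTEC libraries, 4 of the 9 immature genes were higher and 3 lower, where 20.7% and 20.6% of all tested genes were. KO cTEC is shared by the 2 comparisons.

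Growth factor receptors and their signalling genes were lower in KO mTEChi. In the BMP, TGF-beta, FGF and EGF list, 15 of 18 genes were lower (12 after quantile normalization) and 2 higher, with a median of -2.17. The receptor Tgfbr2 was at 0.672, 0.774 and 0.765 RPKM in KO mTEChi and at 28.5, 41.8 and 46.2 RPKM in KO cTEC (-5.51 ± 0.15). Fgfr2, whose ligands drive epithelial growth, was at 1.82, 1.98 and 1.70 RPKM in KO mTEChi and at 43.6, 66.9 and 64.6 RPKM in KO cTEC (-4.90 ± 0.14). Follistatin, Fst, a secreted antagonist, was at 0.692, 0.782 and 0.820 RPKM in KO mTEChi and at 38.2, 75.4 and 86.0 RPKM in KO cTEC (-6.19 ± 0.24). All 3 stood apart without overlap, by 31.8 to 87.0 times in the mean. The ligand Bmp4 (-5.10) and the receptor Egfr (-3.12) were lower too.

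In the Notch pathway, 10 of 15 genes were lower (9 after quantile normalization) and 5 higher, among them Dll4. Over all tested genes, 47.4% were lower and 29.1% higher, so the share higher was near that of all genes. The ligands Jag2 (3.0, 3.19 and 3.04 RPKM in KO mTEChi, 64.8, 92.8 and 100.1 RPKM in KO cTEC, -4.73 ± 0.15) and Dll1 (-3.91) fell, as did the target genes Hey1 (-3.87) and Hes1 (-2.79). The glycosyltransferase Mfng rose from 3.33, 2.32 and 1.09 RPKM in KO cTEC to 16.2, 16.2 and 14.4 RPKM in KO mTEChi (2.87 ± 0.32), and the DNA-binding factor Rbpj by 1.1. Among 17 Wnt genes, 10 were lower and 5 higher, the latter again near the share of all genes. Wnt4, an epithelial Wnt that supports Foxn1 expression, was at 8.04, 7.99 and 8.03 RPKM in KO mTEChi and at 39.7, 60.3 and 56.3 RPKM in KO cTEC (-2.66 ± 0.13), Dkk3, a secreted modulator, fell by 5.14 on the log2 scale, and Wnt10b was among the largest rises.

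Cytokines and chemokines went both ways. Of 13 thymopoietic cytokines 8 were lower and 4 higher, and of 14 chemokines 5 were lower and 6 higher. Over all tested genes, 47.4% were lower and 29.1% higher. Il15, which supports natural killer and memory T cells, was at 76.6, 80.5 and 71.3 RPKM in KO mTEChi and at 21.7, 18.1 and 13.8 RPKM in KO cTEC (2.11 ± 0.15), and Flt3l rose by 1.39. Ccl19, a Ccr7 ligand that draws selected thymocytes to the medulla, was at 349, 395 and 326 RPKM in KO mTEChi and at 70.7, 36.6 and 25.1 RPKM in KO cTEC (3.14 ± 0.28). The Cxcr3 ligand Cxcl9 rose by 3.30. Cx3cl1, which attracts myeloid cells, was at 6.06, 6.35 and 5.52 RPKM in KO mTEChi and at 57.6, 80.0 and 85.2 RPKM in KO cTEC (-3.60 ± 0.14). Ccl5 was not called (-0.13 ± 0.33, adjusted p = 0.72).

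Matrix genes were lower in KO mTEChi, 15 of 18, and none was higher (2 after quantile normalization), with a median of -2.95. Lamb3, a laminin chain of epithelial basement membrane, was at 2.53, 2.76 and 2.79 RPKM in KO mTEChi and at 67.9, 91.4 and 83.2 RPKM in KO cTEC (-4.85 ± 0.11). Col6a1 was at 4.35, 5.40 and 6.59 RPKM in KO mTEChi and at 132, 141 and 134 RPKM in KO cTEC (-4.64 ± 0.14), and Bgn (biglycan) fell by 5.30 on the log2 scale. The groups did not overlap for these genes. Tnc (tenascin C), the most abundant member not called, was at 209, 219 and 234 RPKM against 251, 238 and 209 RPKM (-0.07 ± 0.10, adjusted p = 0.5). Of 18 junction genes, 10 were lower and 8 higher, where 47.4% and 29.1% of all tested genes were. The gap junction gene Gjb2 was at 155, 158 and 157 RPKM in KO mTEChi and at 31.3, 13.0 and 9.57 RPKM in KO cTEC (3.30 ± 0.37), occludin, Ocln, rose by 1.95, and the claudin Cldn8 (-4.86) and desmoplakin, Dsp (-1.45), were lower.

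Fibroblast genes mark other stromal cells that a sort could hold. Of 10, 8 were lower in KO mTEChi and 2 higher, and their summed level was 53.1 to 69.5 RPKM in KO mTEChi and 204.2 to 446.2 RPKM in KO cTEC. The sum in KO cTEC was carried by Dcn (decorin), at 166, 389 and 392 RPKM. Of the fibrillar collagen genes, Col1a1 was at 0.925, 0.254 and 1.09 RPKM in KO cTEC and Col3a1 at 11, 11.2 and 13.4 RPKM. Both were lower in KO mTEChi, with log2 differences of -1.69 and -4.28. The part of other stromal cells in the matrix result was not tested.

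Immediate early genes, which also rise when tissue is digested, were lower in KO mTEChi, 12 of 13 (median -1.17). Fos was at 291, 305 and 342 RPKM in KO mTEChi and at 1171, 1572 and 2307 RPKM in KO cTEC (-2.38 ± 0.21), and Nr4a1 and Jun differed by -2.48 and -1.89. Junb was not called (-0.39 ± 0.22, adjusted p = 0.11). After quantile normalization and against WT cTEC it was called lower, as all 13 genes were. Whether the time that the populations spent in digestion and sorting differed is not given in the labels, and its part was not tested.

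Interferon-stimulated genes were lower in KO mTEChi, 13 of 16, with 2 higher and a median of -2.0. Ifit3 was at 1.54, 2.0 and 1.91 RPKM in KO mTEChi and at 81.3, 113 and 134 RPKM in KO cTEC (-5.82 ± 0.17). Oas2, a sensor of double-stranded RNA, was at 0.240, 0.301 and 0.294 RPKM in KO mTEChi and at 20.0, 11.1 and 16.3 RPKM in KO cTEC (-5.36 ± 0.20). The ubiquitin-like Isg15 was at 11, 13.1 and 12.5 RPKM in KO mTEChi and at 135, 169 and 155 RPKM in KO cTEC (-3.63 ± 0.12). None of the 3 overlapped. The transcription factor Irf7 (-2.66) and Ifi44 (-5.03) were lower as well. Higher were Usp18 (0.64 ± 0.10), which removes Isg15 from proteins, and the chemokine Cxcl10 (0.90 ± 0.21). Ifit1 was not called, at 75.5, 82.5 and 77.5 RPKM against 67.5, 83.1 and 97.6 RPKM (-0.06 ± 0.12, adjusted p = 0.65). Against WT cTEC 14 of the 16 were lower and 2 higher. In KO mTEClo, beside the same KO cTEC, 5 were higher and 3 lower, where 20.7% and 20.6% of all tested genes were.

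The interferon-stimulated response element, searched as GAAA, any 2 bases and GAAA on both strands, stood in the promoters of 3.99% of the 27025 genes and of 7 of the 11 list members in the table: Isg15, Ifit1, Ifit3, Oas1a, Oas3, Rsad2 and Cxcl10. Shown are 100 bases from the promoters of 3 members that fell and of Cxcl10, which rose, from chr4:156200842-156200941, - strand, chr19:34583328-34583427, + strand, chr12:26456518-26456617, - strand and chr5:92349040-92349139, - strand, with matches on either strand in capitals.
Isg15: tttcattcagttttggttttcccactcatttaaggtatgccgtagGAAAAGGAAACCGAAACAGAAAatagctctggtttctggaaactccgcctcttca
Ifit3: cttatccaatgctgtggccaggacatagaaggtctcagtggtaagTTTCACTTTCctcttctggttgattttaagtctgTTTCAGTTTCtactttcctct
Rsad2: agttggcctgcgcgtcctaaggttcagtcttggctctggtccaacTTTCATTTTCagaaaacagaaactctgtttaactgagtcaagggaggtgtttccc
Cxcl10: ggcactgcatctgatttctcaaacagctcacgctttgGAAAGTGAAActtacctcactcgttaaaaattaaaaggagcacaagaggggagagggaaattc
Isg15 holds 3 overlapping matches and Ifit3 holds 2. Rsad2, an antiviral enzyme, fell by 2.23 on the log2 scale. The element thus stands before genes that were lower and before one that was higher.

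Tissue-restricted genes remained higher in KO mTEChi for many members. Over 9 lists (islet, exocrine pancreas, gut, liver, muscle, brain, eye, testis, milk and saliva) 96 of 160 genes passed the filter, 7 of them only through the KO mTEChi libraries, which therefore had to differ. Of the 96, 58 were higher and 19 lower, where 29.1% and 47.4% of all tested genes were, with a median log2 difference of 1.38. These counts are over genes that passed and are no measure of the lists as wholes. In WT, on the same genes, 86 of the 96 were higher in mTEChi than in cTEC and 4 lower, with a median of 3.95, where 40.3% of all tested genes were higher and 36.6% lower. The difference between the KO and the WT contrast was called for 75 of the 96, lower in KO for 74 of them, where 38.4% of all tested genes were lower and 5.59% higher in KO. Without KO cTEC replicate 1 the KO counts were 61 higher and 19 lower, and against WT cTEC 69 and 15. By organ, 7 of 10 islet genes, 4 of 5 exocrine pancreas genes, 9 of 15 gut genes, 6 of 13 liver genes, 9 of 12 muscle genes, 11 of 16 brain genes, 2 of 9 eye genes, 7 of 11 testis genes and 3 of 5 milk and saliva genes that passed were higher. The 7 genes that passed only through KO mTEChi were 3 of the testis, 2 of the islet, 1 of the gut and 1 of the milk and saliva genes, and they had to be high there. KO cTEC replicate 1 was the highest of its group for 54 of the 96.

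Single genes of these lists reached high levels in KO mTEChi. Csn2 was at 1266, 1358 and 1236 RPKM in KO mTEChi and at 147, 60.1 and 48.8 RPKM in KO cTEC, a log2 difference of 4.09 ± 0.39, and was at 720.3 ± 37.5 RPKM in WT mTEChi. Cdx1, a transcription factor of gut epithelium, was at 166, 172 and 131 RPKM in KO mTEChi and at 28.9, 13.0 and 10.3 RPKM in KO cTEC (3.30 ± 0.35). Actn3, the alpha-actinin of fast muscle, was at 168, 159 and 151 RPKM in KO mTEChi and at 26.2, 21.2 and 15.2 RPKM in KO cTEC (2.96 ± 0.19). No KO cTEC library reached a KO mTEChi library in these 3 genes. The synaptic protein gene Syt1 (2.86), the egg coat gene Zp2 (2.88), the gut cadherin Cdh17 (3.09), the prothrombin gene F2 (3.80), desmin, Des (2.81), and Gad1 (3.56), an autoantigen of islets and brain, were higher too.

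Other tissue-restricted genes were lower in KO mTEChi or differed much less in KO than in WT. Csn1s1, a casein gene close to Csn2 on chromosome 5, was at 0.228, 0.542 and 0.520 RPKM in KO mTEChi and at 3.03, 1.72 and 2.49 RPKM in KO cTEC (-2.28 ± 0.34), against 5.26 in WT. Pgc (pepsinogen C) was at 0.128, 0.191 and 0.229 RPKM in KO mTEChi and at 0.0881, 0.0625 and 0.00507 RPKM in KO cTEC, and at 54.8 ± 5.35 RPKM in WT mTEChi, so that its log2 difference was 0.92 in KO and 8.71 in WT (difference -7.79). Reg3g, an antimicrobial lectin of gut, was at 78.6, 88.1 and 83.6 RPKM in KO mTEChi and at 74.4, 26.7 and 51.3 RPKM in KO cTEC (0.83), against 4.90 in WT. The KO call of Reg3g was lost without KO cTEC replicate 2 (0.431), KO mTEChi replicate 2 (0.794) or KO mTEChi replicate 3 (0.832). Nefm (neurofilament) was lower in KO mTEChi (-3.29) and was not called in WT (0.11). Amy1 (amylase) was lower in both genotypes (-3.39 in KO, -2.90 in WT), and its reads may be shared with other amylase genes.

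**Figure D4:**
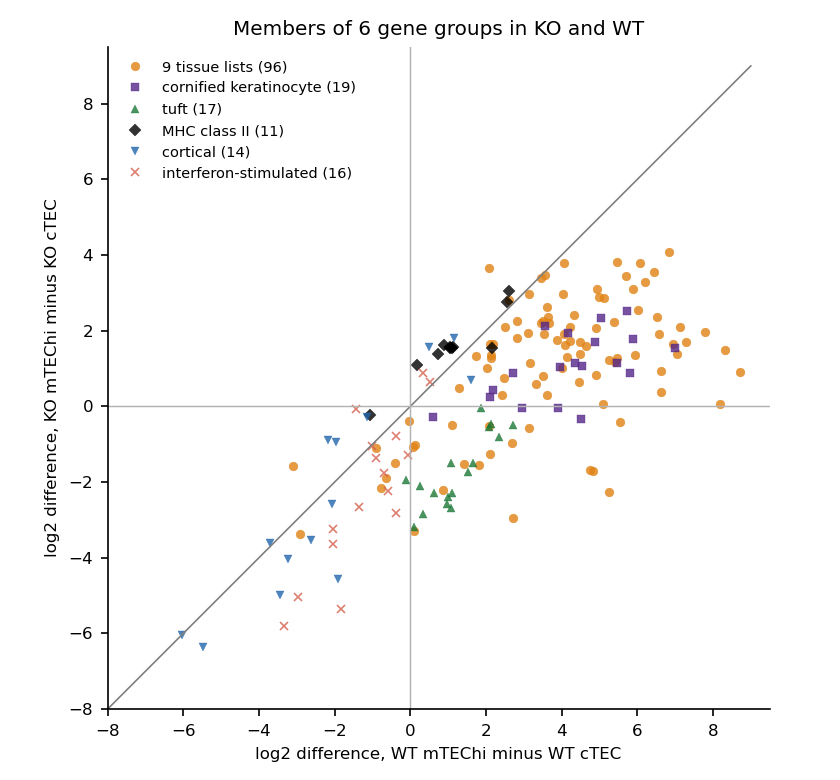
Log2 difference between mTEChi and cTEC in KO (vertical) and in WT (horizontal) for tested members of 6 gene groups, with the number of genes in brackets; the diagonal marks equal differences. The 19 cornified genes lie below the diagonal, as do most tissue genes, and the 17 tuft genes lie below 0 in KO and, except Alox5 at -0.12, above 0 in WT.

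Genes of cornified keratinocytes, the barrier cells of skin that post-Aire mTEC resemble, were higher in KO mTEChi for 12 of 19 members and lower for none (median 1.07). Of the 19, 13 were higher in KO cTEC than in WT cTEC, and against WT cTEC 17 were higher in KO mTEChi. In WT all 19 were higher (median 4.36), and for all 19 the KO contrast was lower than the WT contrast. Krt10, a keratin of differentiated epidermis, was at 22.5, 20.8 and 20.9 RPKM in KO mTEChi and at 5.12, 4.72 and 6.92 RPKM in KO cTEC (1.94 ± 0.17). It was at 95.4 ± 3.99 RPKM in WT mTEChi (WT difference 4.17). Involucrin, Ivl, differed by 0.89 in KO and 5.80 in WT. Sprr1a was not called in KO (-0.04 ± 0.17, adjusted p = 0.82) and differed by 3.91 in WT. Genes linked to Fezf2 were higher in 12 of the 12 that passed, 1 of them only through KO mTEChi, with a median of 2.30, against 5.08 in WT. Calb1, calbindin, was at 1.86, 2.41 and 1.74 RPKM in KO mTEChi and at 0.0490, 0.114 and 0 RPKM in KO cTEC (3.82 ± 0.26).

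Tuft cell genes went in opposite directions in KO and in WT. Of 17 tested, 12 were lower in KO mTEChi than in KO cTEC, none was higher, and the median was -1.94, whereas in WT 12 were higher and none lower (median 1.08). Trpm5, the taste channel, was at 10.1, 14.9 and 17.7 RPKM in KO mTEChi and at 141, 62.9 and 64.5 RPKM in KO cTEC (-2.57 ± 0.40). In WT cTEC it was at 8.57, 23.7 and 10.2 RPKM and in KO mTEClo at 222, 257 and 275 RPKM. The order was thus KO mTEClo, KO cTEC, then KO mTEChi and WT cTEC, whose libraries overlapped. Avil (advillin) was at 20.1, 29.2 and 32.3 RPKM in KO mTEChi, 237, 96.2 and 99.8 RPKM in KO cTEC, 13.1, 35.6 and 14.2 RPKM in WT cTEC and 378, 426 and 406 RPKM in KO mTEClo. Dclk1, a kinase that marks tuft cells, was at 1.98, 2.78 and 2.94 RPKM in KO mTEChi and at 38.0, 20.0 and 17.7 RPKM in KO cTEC (-3.18 ± 0.33).

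The fall of the tuft genes depended on the cTEC group they were set against. All 17 genes were higher in KO cTEC than in WT cTEC, and KO cTEC replicate 1 was the highest of the 3 for all 17. Their summed level was 1350 RPKM in KO cTEC replicate 1, 595.8 and 608 RPKM in replicates 2 and 3, 90.3 to 239.3 RPKM in WT cTEC and 156.4 to 223.6 RPKM in KO mTEChi. Without replicate 1, 11 of the 17 were lower and none higher. With WT cTEC in place of KO cTEC, 6 were higher and 1 lower (median 0.47). Of the 16737 tested genes, 5422 were higher and 7833 lower in that setting, so the share higher was near that of all genes. Pou2f3, the transcription factor on which tuft cells depend, was not called in KO (-0.56 ± 0.33, adjusted p = 0.13) and was higher than in WT cTEC (1.56). The leukotriene gene Alox5ap (-2.84), acetylcholine-making Chat (-2.70) and the cytokine Il25 (-2.29) were lower than in KO cTEC, and against WT cTEC differed by 0.08, 0.22 and 0.89.

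Regulators of other cell types that mTEC can mimic were mixed, 7 of the 16 that passed being higher, 4 lower, and 1 of the 16 passing only through KO mTEChi. KO cTEC replicate 1 was the highest of its group for 15 of the 16, and without it 10 were higher and 2 lower. Insm1, of endocrine cells, was at 124, 131 and 128 RPKM in KO mTEChi and at 22.2, 10.6 and 8.38 RPKM in KO cTEC (3.34 ± 0.38). Foxj1, of ciliated cells, was at 30.0, 27.1 and 25.2 RPKM in KO mTEChi and at 7.68, 3.53 and 3.15 RPKM in KO cTEC (2.61 ± 0.23). Spib, of microfold cells, was at 117, 116 and 98.6 RPKM in KO mTEChi and at 93.6, 35.6 and 37.9 RPKM in KO cTEC (1.13 ± 0.29), with the KO cTEC replicates more than 2-fold apart. Trp73, a p53 relative needed by multiciliated cells, was at 0.0667, 0.0569 and 0.0791 RPKM in KO mTEChi and at 4.31, 7.68 and 6.52 RPKM in KO cTEC (-5.19 ± 0.20).

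Proliferation genes were higher in KO mTEChi for 12 of 21 and lower for 2, or for 16 and 0 after quantile normalization. Cdk1 was at 9.38, 10.1 and 6.82 RPKM in KO mTEChi and at 1.5, 1.5 and 1.41 RPKM in KO cTEC (2.48 ± 0.26), and Mki67 differed by 0.84 ± 0.23. Without KO cTEC replicate 1, 9 were higher, where 5018 of the 16737 tested genes were. Against WT cTEC 6 were higher and 3 lower, where 5422 and 7833 of the 16737 tested genes were. The share higher against WT cTEC was thus near that of all genes. In WT 19 of the 21 were higher, and the KO contrast was lower than the WT contrast for 11.

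Genes of proteins that bind Aire or act with it gave counts that turned with the scaling. Of 18 genes, 9 were lower and 4 higher, where 47.4% and 29.1% of all tested genes were. After quantile normalization 5 were lower and 7 higher. The deacetylase Sirt1 was at 207, 205 and 208 RPKM in KO mTEChi and at 38.3, 22.8 and 23.8 RPKM in KO cTEC (2.90 ± 0.14). Xrcc5, a subunit of the Ku complex, was at 2.29, 2.84 and 2.24 RPKM in KO mTEChi and at 18, 29.6 and 29.4 RPKM in KO cTEC (-3.30 ± 0.16). Of 15 genes of hormone receptors, 10 were lower (7 after quantile normalization) and 4 higher, against the same shares of all tested genes. The vitamin D receptor Vdr rose by 1.94 and the progesterone receptor Pgr fell by 3.71 on the log2 scale.

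**Figure D5:**
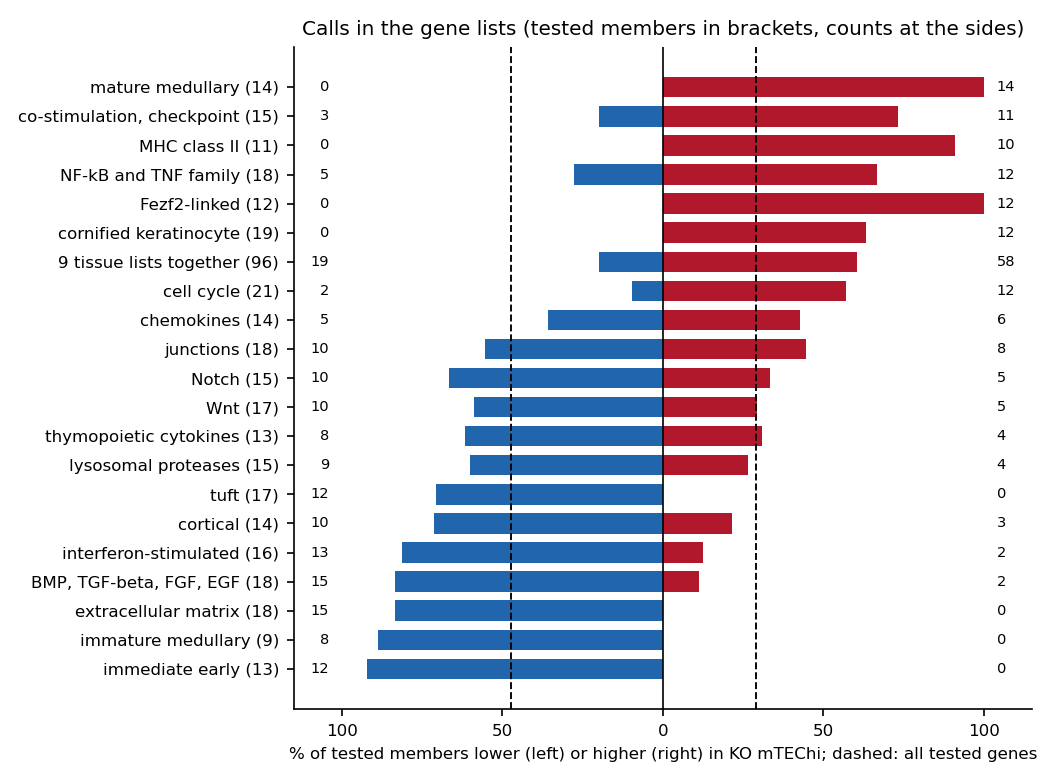
Percentage of the tested members of 21 gene groups called lower (left, blue) or higher (right, red) in KO mTEChi than in KO cTEC, with the number tested in brackets and the counts at the sides; the dashed lines give the shares over all tested genes, 47.4% lower and 29.1% higher. Mature medullary, MHC class II and Fezf2-linked genes stand at the right, and immediate early, immature medullary and matrix genes at the left.

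Markers of other cells that the sort could hold were found in both groups. For thymocytes, 12 of 18 genes were not called, 5 were lower and 1 higher, and the sum over the list was 83.8 to 112.3 RPKM in KO mTEChi and 52.9 to 79.3 RPKM in KO cTEC. Cd3e was at 1.74, 1.42 and 0.684 RPKM in KO mTEChi and at 2.50, 2.20 and 1.27 RPKM in KO cTEC. Myeloid genes summed to 419.8 to 453.9 RPKM in KO mTEChi, most of it Lyz2 at 330.0, 359.8 and 358 RPKM, and to 160.2 to 204.7 RPKM in KO cTEC. Their counts were 6 higher and 7 lower of 15, and the leukocyte gene Ptprc was lower in KO mTEChi, at 2.74, 2.67 and 1.53 RPKM against 15.2, 10.6 and 5.69 RPKM (-2.07 ± 0.38). B cell genes summed to 49.9 to 53.0 RPKM in KO mTEChi and 13.6 to 33.7 RPKM in KO cTEC, with 6 of 8 higher. Blk, a kinase of B cell receptor signalling, had the smallest adjusted p of these rises (4.29). Endothelial genes summed to 10.8 to 14.6 RPKM in KO mTEChi and 10.4 to 20.9 RPKM in KO cTEC, and 1 of 6 erythroid genes passed the filter, while 2 of the 6 were at 0 in all 6 libraries. The part of these cells in the results was not tested. In such bulk RNA fewer cells of a type and less RNA per cell cannot be told apart.

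The contrast between mTEChi and cTEC was set beside that of WT mice, which shares no library with it. Tested on the 19451 genes with 0.1 RPKM or more in at least 3 of all 18 libraries, 3219 genes were at least 2-fold higher in mTEChi in KO and 6942 in WT, with 2871 in both lists, 89.2% of the KO list and 41.4% of the WT list. On the lower side there were 3835 genes in KO and 2298 in WT, with 2021 in both, 52.7% of the KO list and 87.9% of the WT list. Of the 6942 genes, 331 were at least 2-fold lower in KO, and of the 2298 genes 1 was at least 2-fold higher in KO. The direct test of the difference called 6426 of the 16737 genes lower and 935 higher in KO. This split moved with the scaling, to 3046 lower and 5044 higher after quantile normalization and to 3282 lower and 3740 higher when libraries were centred on housekeeping genes.

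Among genes called in KO without overlap and with a mean of 1 RPKM or more in a KO group, the 5 lowest values of the KO minus the WT difference belonged to genes lower in KO and higher in WT. Gsdmc2, a gasdermin of gut epithelium with close copies, was at 0.174, 0.334 and 0.144 RPKM in KO mTEChi and at 1.79, 1.40 and 1.46 RPKM in KO cTEC, a log2 difference of -2.42 against 6.07 in WT. Crisp3, a secretory protein of salivary gland, differed by -2.54 in KO and 5.56 in WT, Sprr2d, of the cornified envelope, by -1.90 and 5.42, and Atp6v1b1, a proton pump subunit, by -4.58 and 2.26. For these genes and Csn1s1, the KO cTEC libraries lay above the WT cTEC libraries. On the higher side of KO, Gria1, a glutamate receptor, was at 2.63, 2.38 and 2.53 RPKM in KO mTEChi and at 0.406, 0.276 and 0.0980 RPKM in KO cTEC, a difference of 2.96 against 0.54 in WT. Eif5a2, a translation factor, differed by 2.51 in KO and 0.63 in WT. Ppp1r3c, a subunit that targets a phosphatase to glycogen, was higher in KO (1.17) and lower in WT (-1.13), as were the phosphatase Ptpn14 (0.66 and -1.28) and ataxin, Atxn1 (0.74 and -1.1).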

How the data were processed

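RNA of sorted thymic epithelial cells was sequenced, per the labels, and the submitters' processing notes name CASAVA 1.8.2 and mm10; what CASAVA was used for is not given in the sources used here. For each library the authors deposited a table with 1 RPKM value per gene and a column of aligned bases, a coverage signal, used here only for depth. Whole reads could not be recovered from it, so no count test was run. RPKM values were compared as log2(RPKM + 0.1) with limma 3.58.1 in R 4.3.3, with a mean for each of the 6 groups of 3 libraries fitted over all 18, a trended empirical Bayes spread and Benjamini-Hochberg adjustment over the 16737 genes. The filter kept Gm6981 and Pet2, whose third-highest value was 0.1001 RPKM, and dropped Dfnb59 (0.09974 RPKM) and 9130019P16Rik (0.09965 RPKM). It passed 367 genes through the KO mTEChi libraries alone and 274 through the KO cTEC libraries alone. On simulated data with 16737 genes, 100 genes each were given log2 changes of 1 and 2 between these groups. They were recovered for 68% and 96% of changed genes, with 7 false calls. All other genes were left unchanged there, unlike in the data, where 76.5% were called, so these shares do not carry over to the comparison. The 45 gene lists and the members named here were chosen with earlier results of these data known. Named in the text were the 12 largest called rises and falls (mean of 1 RPKM or more in 1 group, no overlap, no predicted model), the 5 largest differences between the KO and WT contrast on either side, genes of the lists with the smallest adjusted p, and the most abundant member of a list not called; further list members were picked for their role after their values were seen. Promoters came from RefSeq (GRCm38.p6).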

Additional observations from a re-analysis of the deposited data

Results flagged for a closer look

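For the genes below, the difference between mTEChi and cTEC was not the same in KO and WT: a direct limma test of the KO contrast minus the WT contrast, adjusted over the 16737 genes, called each of them. Values are log2 differences of the contrasts. As the report gives, the KO cTEC libraries held more medullary RNA than the WT cTEC libraries, and the part of that RNA in these values was not tested.

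Among the largest rises in KO, the contrast was smaller than in WT for Aire (-2.82), the hormone gene Fgf21 (-1.65), the retinoic acid hydroxylase gene Cyp26a1 (-2.54), Madcam1 (-2.28), Calca (-3.01), Wnt10b (-2.15) and Mia (-2.27). Among the largest falls, the contrast lay further below 0 in KO for Gas1 (-1.53), Pmp22 (-2.19), Il33 (-2.54), Prss23 (-1.59), F3 (-2.52), Aldh1a1 (-2.60), Gpx8 (-1.97), Sparc (-3.39) and Igfbp3 (-3.97).

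Among genes called in KO without overlap and with a mean of 1 RPKM or more in KO mTEChi or KO cTEC, the 5 highest values were those of Gria1 (2.42), Ppp1r3c (2.30), Ptpn14 (1.94), Eif5a2 (1.88) and Atxn1 (1.83), and the 5 lowest those of Gsdmc2 (-8.48), Crisp3 (-8.10), Csn1s1 (-7.53), Sprr2d (-7.32) and Atp6v1b1 (-6.84).

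Other values below 0 were those of tuft genes, with Avil at -3.40, Chat at -3.76 and Trpm5 at -3.54, the barrier genes Ivl (-4.91), Krt10 (-2.24) and Sprr1a (-3.95) and the tissue-restricted genes Pgc (-7.79), Reg3g (-4.06) and Nefm (-3.40). The collagen gene Col1a1 was at -4.06.

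Scaling moved few of these 36 differences: after quantile normalization 34 kept sign and call, that of Gpx8 lost its call and that of Prss23 changed sign. Fgf21 lost its call under 8 of the other alternatives, among them the omission of KO cTEC replicate 1, and a pseudocount of 1 ended the calls of Fgf21, Cyp26a1, Mia, Prss23 and Aldh1a1.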

How the results depend on the processing

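The counts of genes higher and lower in KO mTEChi stayed within 1.5 times of 4870 and 7935 under every alternative run. Leaving out 1 library in turn gave 4493 to 5018 higher and 7511 to 7998 lower. At least 2-fold rises fell to 1875 genes with a pseudocount of 1, which compresses low values. Detected genes differed by -201.7 at 1 RPKM or more and by 1402 when any value above 0 counted, and by 331.8 to 531.8 at 0.1 RPKM without 1 library. Contrasts higher and lower in KO than in WT numbered 5044 and 3046 after quantile normalization and 3740 and 3282 when centred on housekeeping genes, and the cause was not tested.

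Replicate numbers of the labels were shared by the groups. Deviations of same-numbered libraries correlated weakly, at 0.058, 0.096 and 0.052, and those of differently numbered libraries at -0.1 to 0.029. Every library thus correlated best with its own number, and whether same-numbered libraries were paired was not tested. With the replicate block, 4838 genes were higher, 7923 lower, and 918 and 6402 differed between the contrasts.

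A limma fit of the 6 libraries alone called 4378 genes higher and 7360 lower, and the adjusted p of Aire was 0.000109 there. In that fit, the calls of B2m (adjusted p = 0.316), Cd74 (0.0565), Dll4 (0.0527) and Reg3g (0.0585) were lost. Tap1 lost its call when centred on housekeeping genes (-0.169). B2m turned to -0.731 after quantile normalization. With WT cTEC in place of KO cTEC, an alternative chosen after seeing the data, called falls turned to 0.082 for Alox5ap, 0.502 for Avil, 0.221 for Chat, 0.894 for Il25, 0.120 for Trpm5, 0.362 for Crisp3, 1.497 for Csn1s1, 1.294 for Gsdmc2 and 2.223 for Sprr2d. Uncalled genes crossed 0 in the same setting (Epcam 0.183, Pou2f3 1.564, Sprr1a 2.786), after quantile normalization (Krt18 -0.096, Sprr1a 0.002), when centred on housekeeping genes (Ccl5 0.017, Ifit1 0.090, Sprr1a 0.107, Tnc 0.077) and without 1 library (Ccl5 from -0.315 to 0.089, Ifit1 from -0.199 to 0.067, Krt18 from -0.042 to 0.109, Sprr1a from -0.210 to 0.137). The depth behind a single value is unknown, which limits genes near 0.1 RPKM most.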
